A study of Mus musculus with 8 samples.

Results

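The genes described here are 10 regulators of DNA methylation and chromatin that are studied in acute myeloid leukaemia (AML): Dnmt1, Dnmt3a, Dnmt3b, Tet2, Tet3, Asxl1, Ezh2, Kmt2a, Dot1l and Men1. They were chosen by symbol, and all 10 were found among the 48500 genes of the table. RNA was measured in leukaemia stem cells (LSCs), sorted from mouse bone marrow as GFP-positive, c-Kit-positive and Gr-1-negative cells. All mice carried AML driven by HOXA9 and MEIS1, in both groups. The groups are wild type (WT, Nynrin+/+, 4 libraries, WT1 to WT4) and Nynrin-KO (Nynrin-/-, 4 libraries, KO1 to KO4). The sources used here do not state age, sex, the deleted part of Nynrin, the vector of the drivers or whether libraries came from separate mice, and the p-values therefore cover only library-to-library spread, which may be technical. About 10000 cells went into each library.

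DNA methylation is written on cytosines that precede guanine (CpG sites). DNMT1 copies the pattern after replication with its partner UHRF1, while DNMT3A and DNMT3B set new methylation, and TET enzymes oxidise the mark and so start its removal. On histones, EZH2 is the catalytic subunit of Polycomb repressive complex 2, which methylates a lysine of histone tails to silence genes, and ASXL1 is a cofactor of the deubiquitinase BAP1. KMT2A (MLL) works with menin, the product of Men1, on a histone methylation of active promoters, and DOT1L methylates a lysine in the core of the nucleosome. DNMT3A, TET2 and ASXL1 are frequently mutated in human myeloid disease, and menin and DOT1L are bound by inhibitors developed for leukaemias with KMT2A rearrangement.

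The letters around the starts of these genes are shown first for the genes that the results turn on. RefSeq (GRCm38.p6) holds 16 windows for the 10 genes, each 300 bases long, with 250 bases before a start and 50 bases from it. Their CpG content ran from 2 to 57 sites, beside a median of 20 in 9930 windows of tested genes. The genes whose level rose or fell did not share a CpG content: Tet2 held 57 sites (percentile 99.8 of those windows), Dnmt3a 46, 47 and 18 in its 3 windows, Dnmt3b 30 and Asxl1 13 (percentile 27.1). These windows, with the one of 47 sites for Dnmt3a, are printed 5′ to 3′ in the direction of the gene. Each CpG is in capitals, because the DNMT and TET proteins of this group write marks at such sites or start their removal. ASXL1 is not one of these proteins, and its window is printed because its gene rose.
Dnmt3a, chr12:3806910-3807209, plus strand: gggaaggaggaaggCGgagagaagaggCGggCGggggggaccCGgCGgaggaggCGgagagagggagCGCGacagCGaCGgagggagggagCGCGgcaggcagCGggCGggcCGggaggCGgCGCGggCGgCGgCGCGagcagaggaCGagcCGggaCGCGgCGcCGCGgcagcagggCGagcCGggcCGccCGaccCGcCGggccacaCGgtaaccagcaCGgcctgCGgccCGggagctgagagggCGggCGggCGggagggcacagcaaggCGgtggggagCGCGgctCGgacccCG
Dnmt3b, chr2:153649199-153649498, plus strand: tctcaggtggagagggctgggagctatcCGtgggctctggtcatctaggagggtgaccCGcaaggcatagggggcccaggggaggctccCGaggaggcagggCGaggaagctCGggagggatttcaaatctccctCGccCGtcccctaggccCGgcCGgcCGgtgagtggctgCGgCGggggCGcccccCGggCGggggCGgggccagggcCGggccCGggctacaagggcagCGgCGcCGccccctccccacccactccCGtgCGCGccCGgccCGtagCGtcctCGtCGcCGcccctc
Tet2, chr3:133544341-133544640, minus strand: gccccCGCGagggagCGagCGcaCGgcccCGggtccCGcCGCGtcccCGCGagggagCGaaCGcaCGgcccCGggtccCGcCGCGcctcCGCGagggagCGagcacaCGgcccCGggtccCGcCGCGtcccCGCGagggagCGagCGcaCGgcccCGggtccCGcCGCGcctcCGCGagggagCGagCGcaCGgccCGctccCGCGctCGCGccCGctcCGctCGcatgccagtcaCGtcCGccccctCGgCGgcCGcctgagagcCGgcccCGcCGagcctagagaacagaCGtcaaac
Asxl1, chr2:153345580-153345879, plus strand: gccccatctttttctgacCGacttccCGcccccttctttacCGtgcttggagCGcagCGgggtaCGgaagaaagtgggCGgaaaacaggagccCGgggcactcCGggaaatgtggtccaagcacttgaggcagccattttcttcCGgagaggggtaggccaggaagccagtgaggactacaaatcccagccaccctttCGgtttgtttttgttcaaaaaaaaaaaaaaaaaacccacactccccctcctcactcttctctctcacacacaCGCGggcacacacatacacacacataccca

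Another letter pattern was found for 2 of the 10 genes, Dnmt1 and Ezh2. Any of TTTCCCGC, TTTGGCGC or TTTCGCGC, taken as E2F-type letters on either strand, occurred in 3.72% of the windows of tested genes and in 1.84% of all 32851 windows. Among the 10 genes it occurred in 1 of the 3 windows of Dnmt1, with 2 matches, and in the window of Ezh2, with 1 match. Those windows are printed with the matches in capitals. A match is a description of the letters, and binding of a factor was not measured.
Dnmt1, chr9:20952574-20952873, minus strand: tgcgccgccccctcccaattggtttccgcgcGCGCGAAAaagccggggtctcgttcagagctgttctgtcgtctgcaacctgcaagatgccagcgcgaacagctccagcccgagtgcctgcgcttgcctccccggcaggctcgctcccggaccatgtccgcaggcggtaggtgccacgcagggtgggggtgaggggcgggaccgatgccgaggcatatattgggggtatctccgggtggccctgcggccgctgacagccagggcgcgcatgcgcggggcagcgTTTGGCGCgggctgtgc
Ezh2, chr6:47594981-47595280, minus strand: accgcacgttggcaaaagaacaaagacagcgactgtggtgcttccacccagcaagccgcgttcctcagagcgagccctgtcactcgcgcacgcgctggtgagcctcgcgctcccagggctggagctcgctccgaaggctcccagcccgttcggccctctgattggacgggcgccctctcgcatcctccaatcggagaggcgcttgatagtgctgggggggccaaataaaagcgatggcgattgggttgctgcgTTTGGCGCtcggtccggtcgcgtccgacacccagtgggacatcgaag
GGGCGG, the SP1 letters, occurred in 13 of the 16 windows and in 61.2% of the windows of tested genes. The letters CCAAT occurred in 7 of the 16 and in 38.6%, and CCGGAAG, of the ETS type, in 2 and in 19.5%. The windows of Dnmt1 and Ezh2 printed just above held 3 CCAAT matches each. CACGTG, of the MYC type, occurred in 1 and in 10.4%. Windows of one gene overlap in part for Dnmt3a and Men1, and SP1 letters can lie within a CpG-rich stretch by its composition.

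The libraries differed in ways that touch the values below. Depth, recovered from the table as whole reads, ran from 1830000 reads in KO3 and 1960000 in WT3 to 33090000 in WT1. Nynrin stood at 0.008 to 0.286 FPKM (fragments scaled to transcript length and library depth) in WT and at 0.0982 to 0.437 FPKM in Nynrin-KO, so its level does not check the labels. The satellite-like gene model Gm10800 exceeded 10000 FPKM in 5 libraries (WT2, WT3, WT4, KO1 and KO3). Xist was 15.2 to 26.5 FPKM in WT, 12.7 in KO1 and at most 0.366 in KO2 to KO4. The Y-linked Ddx3y was at most 0.111 FPKM in WT, 2.18 in KO1 and 18.2 to 20.7 in KO2 to KO4. KO1 thus held both Xist and Y-linked reads. The sex genes otherwise divided the libraries as genotype does, and sex cannot be told apart from genotype. Kit, which encodes the antigen of the sort, was 2.63 to 6.4 FPKM in WT and 2.92 to 4.91 in Nynrin-KO. Ly6g, a gene of the Gr-1 antigen that the sort selected against, was 0.707 to 49.3 FPKM in WT and 93.5 to 264 in Nynrin-KO. Of 11 gate and progenitor genes 6 were lower and 2 were higher, beside 13.8% lower and 14.0% higher over all tested genes. The progenitor gene Cd34 was 55.7 to 151 FPKM in WT and 5.54 to 7.3 in Nynrin-KO. The 2 higher genes share their names with the drivers. They were Meis1 (0.664 to 0.898 and 2.03 to 5.12 FPKM, limma adjusted p = 0.00466) and Hoxa9 (0.569 to 1.9 and 1.7 to 6.38 FPKM, 0.0397). Whether these reads came from the introduced drivers or from the mouse's own genes was not tested. Meis1 was below 1 FPKM in every WT library. It passed the filter of at least 1 FPKM in 4 libraries only through Nynrin-KO, where it was high. Genes of mature neutrophils summed to 3060 to 106000 FPKM in WT and to 126000 to 286000 in Nynrin-KO, with 10 of 17 higher and 0 lower. Genes of S phase and mitosis summed to 773 to 1600 FPKM in WT and 443 to 698 in Nynrin-KO, with 0 of 16 higher and 8 lower. Of 17 monocyte and macrophage genes 6 were higher and 1 was lower, and of 4 tested mast cell and basophil genes 3 were higher. Of the 10 erythroid genes 4 were tested and 3 were higher, with sums of 11.1 to 14.8 FPKM in WT and 15 to 59.2 in Nynrin-KO. Hbb-bs, Hba-a1 and Car2 reached at most 0.277, 0.809 and 0.855 FPKM in WT. They passed the filter only through Nynrin-KO, so the filter favoured a call of higher. The same holds for the macrophage gene Mrc1, the mast cell gene Ms4a2 and the B cell gene Cd79a. They reached at most 0.421, 0.295 and 0.7 FPKM in WT. The T and NK cell list summed to 1.43 to 11.6 FPKM in WT and 99.7 to 227 in Nynrin-KO, nearly all of it Nkg7 in Nynrin-KO (94.5 to 223 FPKM), its single tested gene and higher, while Cd3e, Cd3d and Cd3g reached at most 3.01 FPKM. Of 4 tested B cell genes 1 was higher, the list summed to 160 to 259 FPKM in WT and 168 to 197 in Nynrin-KO, Cd79a was 0.0398 to 0.7 and 2.63 to 8.51 FPKM, and Pax5 reached at most 0.342. Fewer cells of a type and less RNA per cell cannot be told apart in such sorted bulk samples, and the part of these mixtures in the results was not tested.

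Of the 10 regulators 3 rose in Nynrin-KO (Dnmt3a, Tet2 and Asxl1), 1 fell (Dnmt3b), and 6 did not pass the test. The test was limma on log2(FPKM + 1) over 12524 genes, with Benjamini-Hochberg adjustment and a threshold of 0.05. Over all tested genes 27.9% passed, 14.0% higher and 13.8% lower, so the count that fell was near that background, and the count that rose rests on few genes. The calls did not hold in some smaller sets: limma called 0 of the 10 without WT1 alone, without KO4 alone, within the 5 libraries high in Gm10800, and without both WT1 and KO1. At an unadjusted p under 0.05 the counts higher and lower were then 3 and 2, 3 and 2, 0 and 1, and 3 and 1, in that order, beside 4 and 2 with all libraries. On the log2(FPKM + 1) scale 0 of the 10 changed by 1 or more, a size reached by 20.6% of all tested genes, though Dnmt3b stood at -1.16 with a pseudocount of 0.1 and at -1.17 with voom on the recovered reads. The median log2 fold change of the 10 genes was 0.09 (all tested genes -0.03), and the median of its absolute size was 0.49 in both. The groups did not overlap for 6 of the 10 (4 higher and 2 lower in Nynrin-KO), where the shares over all tested genes were 31.7% in either direction, 16.7% higher and 15.0% lower. All 10 had passed the filter of at least 1 FPKM in 4 libraries.

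**Figure D1:**
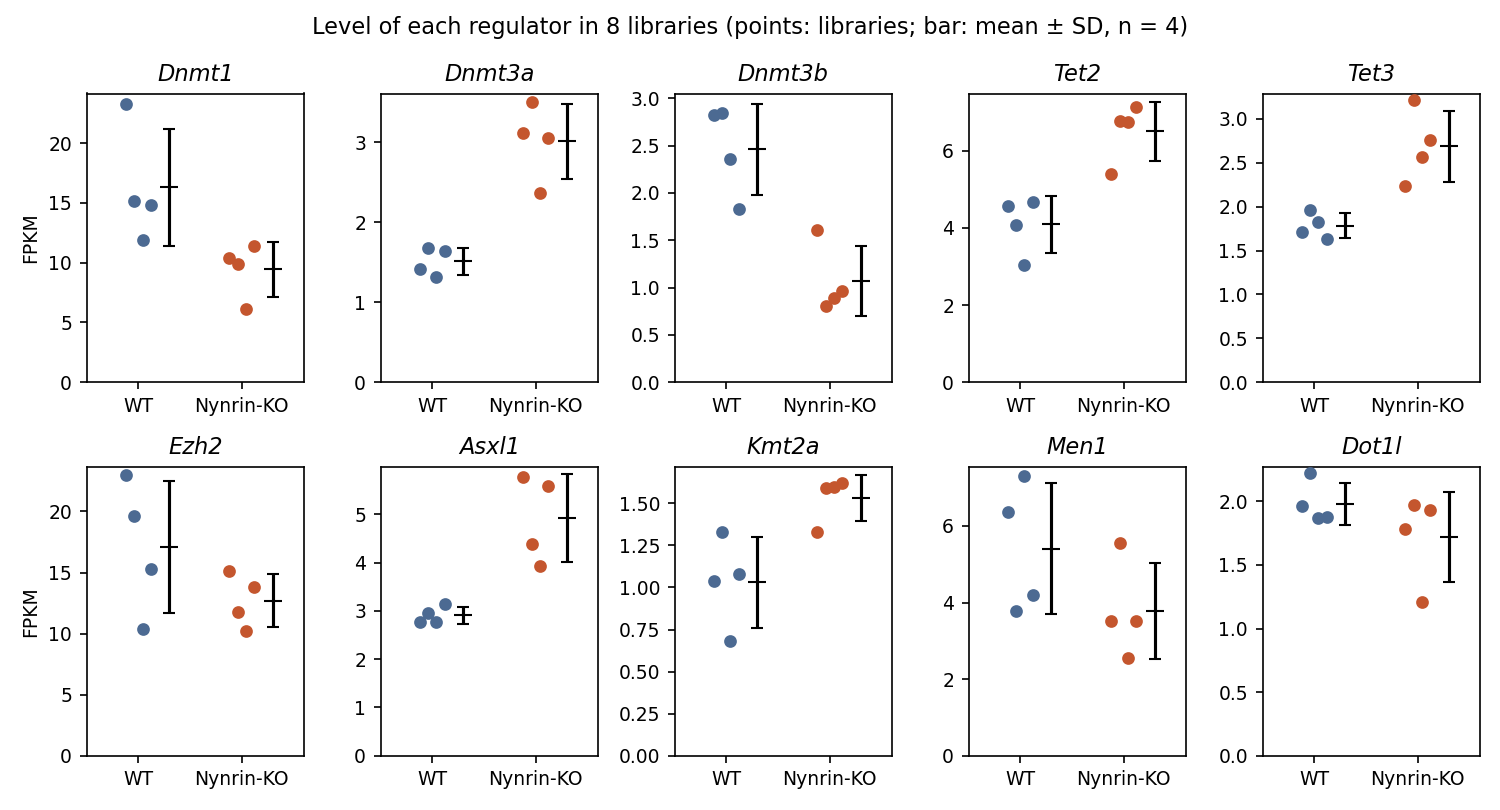
Level in FPKM of each of the 10 regulators in the 4 WT (blue) and 4 Nynrin-KO (orange) libraries, each point a library, with the mean ± SD beside the points and each axis starting at 0. Dnmt3a, Tet2, Tet3 and Asxl1 lie higher in every Nynrin-KO library, Dnmt1 and Dnmt3b lie lower in every one, and the groups overlap for Ezh2, Kmt2a, Men1 and Dot1l.

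The order of the levels, in FPKM scaled to the longest annotated transcript, was headed by Ezh2 and Dnmt1 in both groups. This order depends on the lengths used, which ran from 2787 bases for Ezh2 to 16470 for Kmt2a. Recovered reads, not scaled to length, were higher for Dnmt1 than for Ezh2 in every library (4535 and 2117 in WT1). Which transcripts the cells expressed was not tested. In WT the means were 17.1 FPKM for Ezh2, 16.3 for Dnmt1, 5.41 for Men1, 4.1 for Tet2, 2.91 for Asxl1, 2.46 for Dnmt3b, 1.98 for Dot1l, 1.78 for Tet3, 1.51 for Dnmt3a and 1.03 for Kmt2a. Ezh2 and Dnmt1 differed by less than their SDs of 5.43 and 4.92. The gap between Men1 and Tet2 was below the SD of Men1 (1.7 FPKM) and above that of Tet2 (0.742 FPKM). In Nynrin-KO the order was Ezh2 (12.7), Dnmt1 (9.46), Tet2 (6.51), Asxl1 (4.92), Men1 (3.78), Dnmt3a (3.01), Tet3 (2.69), Dot1l (1.72), Kmt2a (1.53) and Dnmt3b (1.07). Dnmt3a moved from the 9th to the 6th place and Dnmt3b from the 6th to the 10th. Most of these are genes of low level: Kmt2a lay at percentile 7.97 of the tested genes by mean level, Dnmt3b at 18.8 and Dnmt3a at 27.7, while Ezh2 lay at 79.6.

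Dnmt3a (ENSMUSG00000020661, mm10 chromosome 12, 3806007 to 3914443) encodes one of the de novo DNA methyltransferases. It stood at 1.42, 1.68, 1.32 and 1.64 FPKM in WT1 to WT4 and at 3.11, 3.5, 2.37 and 3.05 FPKM in KO1 to KO4. Every Nynrin-KO library lay above every WT library, and the lowest of them was the shallow KO3. Group means (SD, n = 4 each) were 1.51 ± 0.173 and 3.01 ± 0.467 FPKM, a ratio of 1.99, and the log2 fold change was 0.67 (SE 0.17, limma adjusted p = 0.0182). The values rest on 25 reads in WT3, 42 in KO3 and 115 to 848 in the other libraries. The call was lost without WT1, KO2 or KO4 (adjusted p = 0.0506, 0.0597 and 0.0526), while the log2 fold change stayed between 0.55 and 0.96 over 24 other settings, with adjusted p from 0.00166 to 0.289.

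Dnmt3b (ENSMUSG00000027478, mm10 chromosome 2, 153649450 to 153687730), the other de novo methyltransferase gene, moved the opposite way. WT1 to WT4 held 2.82, 2.85, 2.36 and 1.83 FPKM of it, and KO1 to KO4 held 1.61, 0.803, 0.887 and 0.96 FPKM. Here too the groups did not overlap, although WT4 and KO1 stood close to each other. The means were 2.46 ± 0.479 and 1.07 ± 0.37 FPKM (SD, n = 4 each), 2.31-fold lower in Nynrin-KO, with a log2 fold change of -0.75 (SE 0.21, limma adjusted p = 0.026). Only 5 libraries held at least 1 FPKM, the 4 WT libraries and KO1, so the gene passed the filter mainly through the group where it was high. The value in KO3 rests on 7 reads. Without WT1, WT2, KO2 or KO4 the adjusted p was 0.0735, 0.0781, 0.0686 and 0.0637, and over 24 settings it ranged from 0.00646 to 0.326 with log2 fold changes from -1.17 to -0.58.

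In FPKM the order of the de novo pair differed between the groups in every library. Dnmt3a was below Dnmt3b in all 4 WT libraries, with ratios of 0.505, 0.59, 0.558 and 0.895, and above it in all 4 Nynrin-KO libraries, with ratios of 1.93, 4.35, 2.68 and 3.18. On average the ratio was 0.637 ± 0.176 across WT libraries and 3.04 ± 1.02 across Nynrin-KO libraries (SD, n = 4 each). This ratio was formed after both levels had been seen and is given as a description, with no test. The order in WT depends on the transcript length used for scaling, 9685 bases for Dnmt3a and 4320 for Dnmt3b. Recovered reads, not scaled to length, were higher for Dnmt3a in WT1 to WT4 too. They were 456, 115, 25 and 273 for Dnmt3a and 403, 87, 20 and 136 for Dnmt3b. A fixed length cancels when the ratio is compared between groups. Which transcripts the cells expressed was not tested. Dnmt3l, the catalytically inactive cofactor of the pair, was 0.763 to 2.24 FPKM in WT and 0.306 to 1.2 FPKM in Nynrin-KO with a log2 fold change of -0.50 (limma adjusted p = 0.208).

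**Figure D2:**
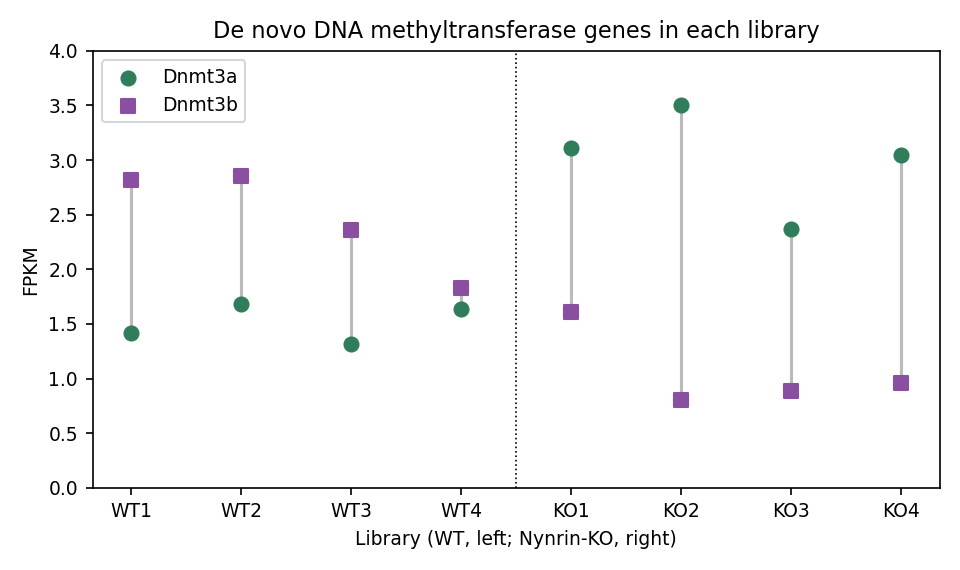
FPKM of Dnmt3a (circles) and Dnmt3b (squares) in each of the 8 libraries, joined by a grey line within a library, on an axis from 0. The square is on top in WT1 to WT4 and the circle is on top in KO1 to KO4, with the narrowest gap in WT4 (1.64 and 1.83 FPKM). The order within a WT library depends on the transcript lengths used for scaling.

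Dnmt1 (ENSMUSG00000004099, mm10 chromosome 9, 20907209 to 20959888), the maintenance methyltransferase gene, did not pass the test. In order, WT1 to WT4 stood at 23.3, 15.2, 11.9 and 14.8 FPKM and KO1 to KO4 at 10.4, 9.86, 6.15 and 11.4 FPKM. The groups did not overlap, but WT3 (11.9) and KO4 (11.4) nearly met, and WT1 stood well above the other WT libraries. With means of 16.3 ± 4.92 and 9.46 ± 2.3 FPKM (SD, n = 4 each) the log2 fold change was -0.72 (SE 0.25, 95% interval -1.28 to -0.15 before adjustment), with a limma adjusted p of 0.0597. The gene passed in 8 of 24 other settings, among them the omission of WT3 (adjusted p = 0.0418), upper-quartile scaling (0.027) and the recovered reads in voom (0.0385), over a range of 0.0042 to 0.643.

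Some genes that work beside DNMT1 fell. Of the 12 listed methylation writers and maintenance partners 11 were tested. Of these 4 fell, Dnmt3b among them, and 1 rose, Dnmt3a, beside 13.8% and 14.0% of all tested genes. Uhrf1, which brings DNMT1 to newly replicated DNA, averaged 33.8 ± 10.2 FPKM (SD, n = 4) in WT and 17.2 ± 4.52 (SD, n = 4) in Nynrin-KO (log2 fold change -0.93, limma adjusted p = 0.0296). Hells, a chromatin remodeller needed for normal methylation, ranged over 8.38 to 12.7 FPKM in WT and over 4.09 to 5.4 in Nynrin-KO (a log2 fold change of -1.0, limma adjusted p = 0.00423). Cdca7, which encodes the partner that activates it, went from 53.5 ± 17.6 to 25.5 ± 5.43 FPKM (-1.01, adjusted p = 0.0216). These genes are also expressed with DNA replication, and 8 of the 16 S phase and mitosis genes given above were also lower, while the proliferation marker Mki67 was 8.15 to 13.3 FPKM in WT and 8.16 to 15.2 in Nynrin-KO. The part of cell cycle in these values was not tested. Hells kept its call whichever single library was left out, Cdca7 lost it without WT2 or KO2, and Uhrf1 lost it without WT1, WT2, WT4, KO2 or KO3 (adjusted p at most 0.0622 and 0.0747). The number of this list that fell was 1 to 6 when single libraries were left out, 1 without both WT1 and KO1, and 0 within the 5 libraries high in Gm10800 (limma, with 4 lower at an unadjusted p under 0.05).

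Tet2 (ENSMUSG00000040943, mm10 chromosome 3, 133463679 to 133545139), the more abundant of the TET genes, rose. It stood at 4.56, 4.09, 3.05 and 4.68 FPKM in WT1 to WT4 and at 5.39, 6.77, 6.74 and 7.14 FPKM in KO1 to KO4. KO1 was the lowest Nynrin-KO library and still lay above the highest WT library. Group means (SD, n = 4 each) were 4.1 ± 0.742 and 6.51 ± 0.767 FPKM, a ratio of 1.59, with a log2 fold change of 0.56 (SE 0.17, limma adjusted p = 0.0336). This call held in 11 of 24 other settings and was lost without WT1, WT2, WT3, KO2, KO3 or KO4 (adjusted p = 0.0545, 0.076, 0.0583, 0.0814, 0.0509 and 0.0882), with log2 fold changes from 0.44 to 0.69 throughout. An antisense gene model, Gm42567, shares 43 exon bases with Tet2 (0.255% of its exon bases) and went from 0.226 to 2.41 FPKM. The sources used here do not state whether counting used strand, so reads of the 2 cannot be told apart in that overlap.

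Tet3 (ENSMUSG00000034832, mm10 chromosome 6, 83362373 to 83459084) was at 1.71, 1.96, 1.82 and 1.63 FPKM in WT1 to WT4 and at 2.24, 3.21, 2.56 and 2.76 FPKM in KO1 to KO4. The groups did not overlap, yet the gene did not pass the test (means 1.78 ± 0.142 and 2.69 ± 0.404 FPKM, SD, n = 4 each, log2 fold change 0.40, SE 0.16, limma adjusted p = 0.0942). It passed in 2 of 24 other settings, array weights (adjusted p = 0.0348) and voom on the recovered reads (0.0222), and the range was 0.0222 to 0.525. Within a library Tet2 exceeded Tet3 by 1.68 to 2.88 times in WT and by 2.11 to 2.63 times in Nynrin-KO, so their proportion overlapped between the groups. Tet1, the third family gene, was 0.135 to 0.532 FPKM in WT and 0.112 to 0.838 in Nynrin-KO and was too low to be tested.

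Genes that act after or around TET moved in both directions. Of the 11 listed demethylation genes 7 were tested, of which 2 rose (Tet2 and Ogt) and 2 fell (Tdg and Idh2). Over all tested genes 14.0% rose and 13.8% fell. Tdg, the glycosylase that removes the oxidised bases, averaged 12.3 ± 3.16 FPKM (SD, n = 4) in WT and 5.16 ± 0.819 (SD, n = 4) in Nynrin-KO (log2 fold change -1.10, limma adjusted p = 0.00467). Idh2, the mitochondrial enzyme that makes the TET cosubstrate alpha-ketoglutarate and is mutated in some human AML, went from 161 ± 69.7 to 36.5 ± 12.2 FPKM (-2.10, adjusted p = 0.0037). Ogt, a glycosyltransferase that binds TET proteins, went from 13.8 ± 1.86 to 24.8 ± 4.43 FPKM (0.79, adjusted p = 0.0132). Among 6 tested methyl-CpG binding proteins 1 rose, Mbd2, from 3.3 ± 0.176 to 9.25 ± 2.18 FPKM (1.23, adjusted p = 0.00283), and none fell. In the 5 libraries high in Gm10800 Tdg and Idh2 passed as lower (adjusted p = 0.0327 and 0.0208), and Ogt and Mbd2 lost their calls (0.0887 and 0.0686). Tdg and Idh2 also passed without WT1 and KO1 (0.0255 and 0.0187), and Tdg, Idh2, Ogt and Mbd2 kept their calls without any single library.

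Ezh2 (ENSMUSG00000029687, mm10 chromosome 6, 47530139 to 47595341), the highest of the 10 by mean FPKM, did not pass the test. The WT libraries 1 to 4 read 23, 19.6, 10.4 and 15.3 FPKM, and the Nynrin-KO libraries 15.1, 11.8, 10.2 and 13.8 FPKM. WT1, WT2 and WT4 lay above every Nynrin-KO library, WT4 narrowly, whereas WT3 lay among them. The log2 fold change was -0.36 (SE 0.25, 95% interval -0.92 to 0.21, limma adjusted p = 0.317), and it passed in 0 of 24 other settings (adjusted p 0.0811 to 0.943). Ezh1, which encodes the alternative catalytic subunit, went from 3.42 ± 0.481 to 6.61 ± 0.789 FPKM (SD, n = 4 each) and rose by 0.79 on the log2 scale (adjusted p = 0.00672). The ratio of Ezh2 to Ezh1 was 2.61 to 7.89 in WT and 1.71 to 2.5 in Nynrin-KO, a description formed after the levels were seen.

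Of 11 listed Polycomb repressive complex 2 genes 10 were tested, and 1 rose (Ezh1) and 2 fell. Those that fell encode histone-binding subunits that this complex shares with other complexes: Rbbp7 averaged 140 ± 58.1 FPKM (SD, n = 4) in WT and 40.1 ± 8.48 (SD, n = 4) in Nynrin-KO (log2 fold change -1.73, limma adjusted p = 0.00357) and Rbbp4 from 39.6 ± 12 to 21.1 ± 2.43 FPKM (-0.84, adjusted p = 0.028). Of 13 tested genes of Polycomb repressive complex 1, the complex that ubiquitinates a core histone, 2 rose and 2 fell. The subunit gene Pcgf1 rose by 0.87 on the log2 scale (adjusted p = 0.0198), and Pcgf6 and Pcgf2 fell by 0.85 and 0.92 (adjusted p = 0.0165 and 0.0228). Without single libraries Ezh1, Rbbp7 and Pcgf6 kept their calls. Rbbp4 lost it without WT1, WT2, WT4, KO1 or KO2, Pcgf1 without WT1, KO1 or KO4, and Pcgf2 without WT2 or KO4 (adjusted p at most 0.0749, 0.0544 and 0.0637). Members of both complexes moved in both directions, and the median log2 fold changes were -0.09 and 0.12. These counts rest on few genes and are near the shares over all tested genes, 14.0% higher and 13.8% lower.

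Asxl1 (ENSMUSG00000042548, mm10 chromosome 2, 153345829 to 153404007) rose. WT1 to WT4 carried 2.77, 2.96, 2.77 and 3.14 FPKM, against 5.77, 4.39, 3.92 and 5.59 FPKM in KO1 to KO4. The WT libraries were nearly level, with a coefficient of variation of 6.05%, and all Nynrin-KO libraries lay above them. Group means (SD, n = 4 each) were 2.91 ± 0.176 and 4.92 ± 0.907 FPKM, a ratio of 1.69, with a log2 fold change of 0.59 (SE 0.16, limma adjusted p = 0.0248). The call was lost without WT1, WT2, KO1 or KO4 (adjusted p = 0.0642, 0.0586, 0.0689 and 0.0746), and the adjusted p ranged from 0.00665 to 0.366 over 24 other settings. The noncoding gene 2500004C02Rik on the other strand shares 197 exon bases with Asxl1, 2.65% of its exon bases, and stood at 2.99 and 3.9 FPKM on average in WT and Nynrin-KO. Of 10 tested genes of the ASXL and BAP1 list 2 rose, Asxl1 and Ogt, and 0 fell, beside 14.0% and 13.8% of all tested genes.

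Asxl1 and Dnmt3b are near neighbours that moved in opposite directions. They lie 245 kb apart on chromosome 2, and of the 3 genes of the table between them the 2 tested, Commd7 and Gm14472, did not pass. No other pair of the 10 on a shared chromosome lies closer than 23.8 Mb.

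Kmt2a (ENSMUSG00000002028, mm10 chromosome 9, 44803355 to 44881296) was the lowest of the group in WT by mean FPKM and did not pass. It stood at 1.04, 1.33, 0.681 and 1.08 FPKM in WT1 to WT4 and at 1.33, 1.59, 1.6 and 1.62 FPKM in KO1 to KO4. KO2, KO3 and KO4 lay above every WT library, and KO1 stood at the level of WT2. The log2 fold change was 0.32 (SE 0.20, 95% interval -0.13 to 0.77, limma adjusted p = 0.256), and no other setting called it (adjusted p 0.0994 to 0.685). Its longest transcript has 16470 bases, so the low level still rests on 22 to 764 reads.

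Men1 (ENSMUSG00000024947, mm10 chromosome 19, 6334979 to 6340891), which encodes menin, varied widely within both groups and did not pass. Menin transcripts stood at 6.36, 3.77, 7.3 and 4.19 FPKM in WT1 to WT4, and at 3.51, 5.55, 2.55 and 3.52 FPKM in KO1 to KO4. The coefficients of variation were 31.4% and 33.3%, and KO2 stood above WT2 and WT4. The log2 fold change of -0.42 (SE 0.25, 95% interval -0.98 to 0.14) had a limma adjusted p of 0.242. Without the shallow pair WT3 and KO3, where Men1 rests on 43 and 14 reads, it was -0.15 (adjusted p = 0.648), and over all 24 settings the adjusted p ran from 0.125 to 0.896.

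Dot1l (ENSMUSG00000061589, mm10 chromosome 10, 80755206 to 80795461) changed least of the 10 and did not pass. It stood at 1.96, 2.22, 1.87 and 1.88 FPKM in WT1 to WT4 and at 1.78, 1.97, 1.21 and 1.93 FPKM in KO1 to KO4. Apart from KO3, where it rests on 15 reads, all libraries fell between 1.78 and 2.22 FPKM. The log2 fold change was -0.14 (SE 0.18, 95% interval -0.54 to 0.26, limma adjusted p = 0.593), and 0 of 24 other settings called it.

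Some partners of KMT2A and DOT1L passed the test. Of 18 listed genes of the MLL and COMPASS complexes 15 were tested, and 2 rose and 2 fell. These counts are near the shares over all tested genes, 14.0% higher and 13.8% lower. Kmt2c, a related methyltransferase gene, averaged 2.86 ± 0.18 FPKM (SD, n = 4) in WT and 4.63 ± 0.294 (SD, n = 4) in Nynrin-KO (log2 fold change 0.54, limma adjusted p = 0.0178), and the coactivator gene Ncoa6 rose by 0.57 (adjusted p = 0.0348). The core subunit genes Ash2l and Dpy30 fell, while Wdr5 (-0.52, adjusted p = 0.097) and Rbbp5 (-0.18, 0.543) did not pass. Ash2l went from 18.2 ± 3.91 to 9.57 ± 0.89 FPKM (-0.84, adjusted p = 0.0098) and Dpy30 from 52.9 ± 16.4 to 26.4 ± 8.33 FPKM (-0.98, adjusted p = 0.0387). Of 14 listed genes of DOT1L and the super elongation complex 9 were tested, and 2 rose and 0 fell. Those 2 were Mllt10, a partner of DOT1L, and the elongation factor gene Ell, by 0.57 and 0.67 (adjusted p = 0.0325 and 0.0169). Ash2l kept its call without any single library. The call was lost for Ell without KO2, for Kmt2c without WT1, KO2 or KO4, for Mllt10 without WT2, WT3, WT4, KO1 or KO2, and for Ncoa6 and Dpy30 without 6 of the 8 libraries each (all but WT2 and KO3, and all but WT3 and KO4), with adjusted p of at most 0.0537, 0.0552, 0.0933, 0.0905 and 0.101. Within the 5 libraries high in Gm10800, and also without both WT1 and KO1, limma called 0 genes of either list. At an unadjusted p under 0.05 the MLL list then held 1 higher and 2 lower, and 2 and 2, and the DOT1L list 1 and 0, and 3 and 0.

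**Figure D3:**
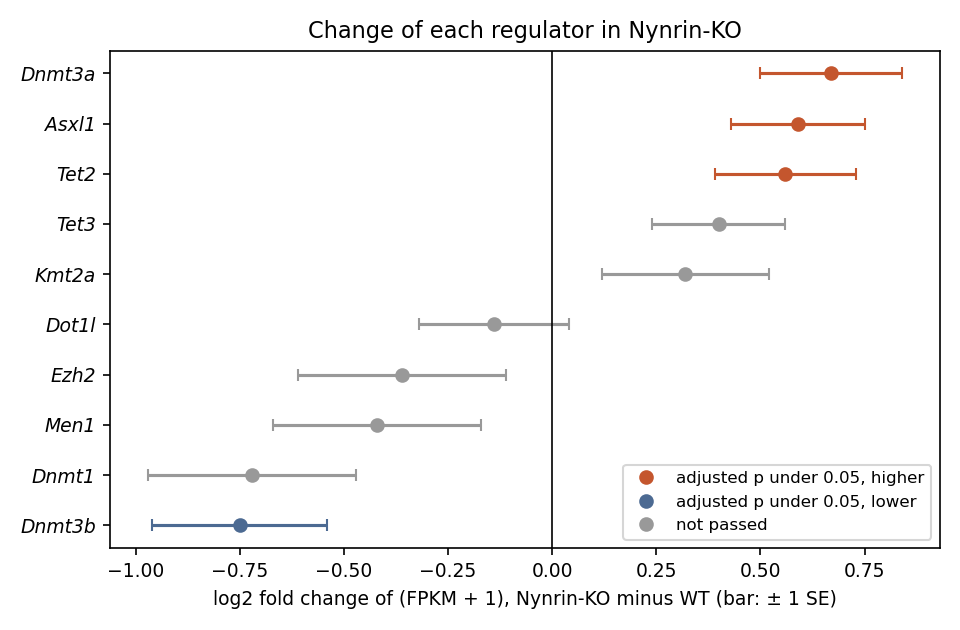
Log2 fold change of (FPKM + 1) of the 10 regulators, Nynrin-KO minus WT, with bars of ± 1 SE from limma, ordered from the lowest (Dnmt3b, -0.75) to the highest (Dnmt3a, 0.67). Orange and blue points passed an adjusted p of 0.05 and grey ones did not. The estimates for Dnmt3a, Asxl1 and Tet2 lie close together, and all 10 lie within 1 log2 unit of 0.

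Other chromatin regulators that are mutated or targeted in AML were also split. Of 31 tested 5 rose and 4 fell, 22 did not pass, and the median log2 fold change was 0.09. The acetyltransferase gene Ep300 averaged 3.67 ± 0.417 FPKM (SD, n = 4) in WT and 6.47 ± 0.602 (SD, n = 4) in Nynrin-KO (log2 fold change 0.68, limma adjusted p = 0.00945). The arginine methyltransferase genes fell by more: Prmt1 went from 13.7 ± 5.3 to 3.73 ± 0.936 FPKM (-1.60, adjusted p = 0.00318) and Prmt5 from 31 ± 12.6 to 8.6 ± 1.97 FPKM (-1.68, adjusted p = 0.0034). Ep300, Prmt1 and Prmt5 kept their calls without any single library, and Prmt1 and Prmt5 also within the 5 libraries high in Gm10800 (0.0395 and 0.0208). Over all 102 tested genes of these lists that are not among the 10, 14 rose (13.7%) and 15 fell (14.7%), beside 14.0% and 13.8% of all tested genes. As a whole these genes changed about as often as all tested genes. Within the 5 libraries high in Gm10800 limma called 0 higher and 5 lower (8 and 14 at an unadjusted p under 0.05), and without both WT1 and KO1 it called 4 and 6.

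**Figure D4:**
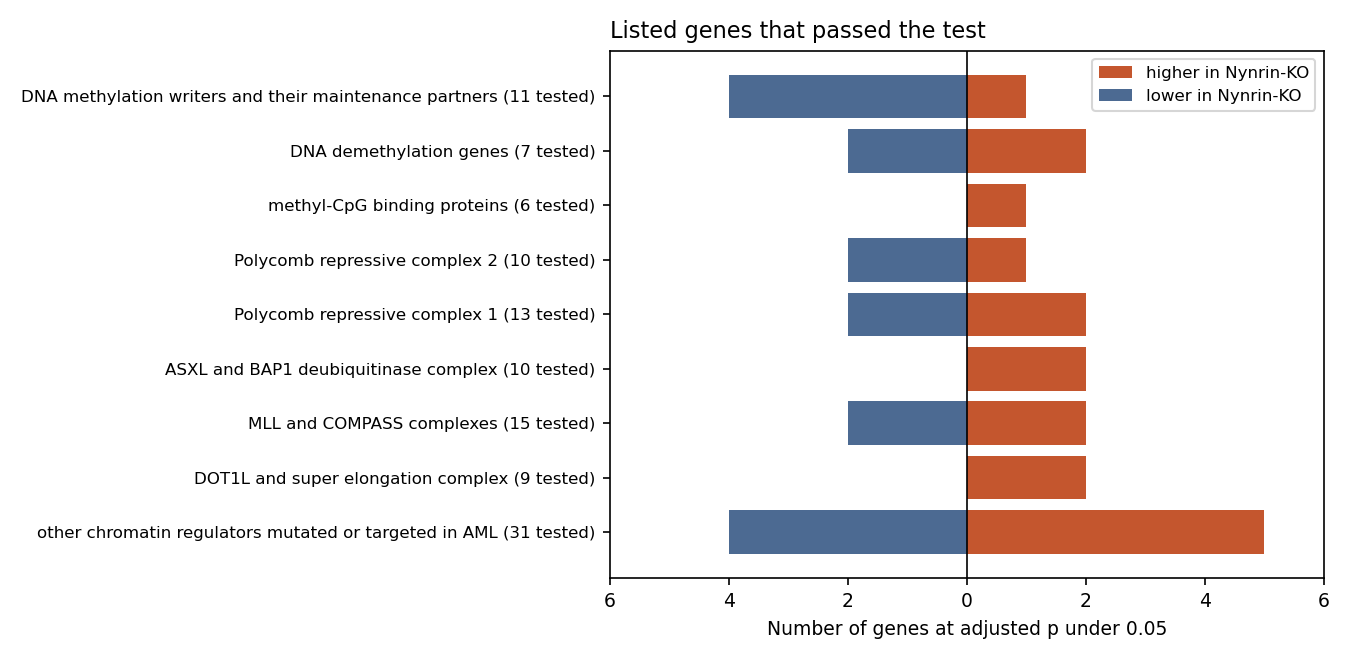
Number of genes of each list at an adjusted p under 0.05, higher (orange, to the right) or lower (blue, to the left) in Nynrin-KO, with the number tested beside each name. The 10 regulators are counted in their lists, 6 of the 9 lists hold genes on both sides, and the methylation writers have the most on the lower side relative to their size (4 of 11).

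Of the histone demethylase genes of the sex chromosomes, the Y-linked Uty and Kdm5d followed the sex genes. The Y-linked Uty was 0.0111 to 0.196 FPKM in WT, 0.587 in KO1 and 3.68 to 4.26 in KO2 to KO4, and Kdm5d was at most 0.128 FPKM in WT, 0.569 in KO1 and 1.52 to 3.5 in KO2 to KO4. Their X-linked counterparts, which escape X inactivation in mouse, did not pass: Kdm6a averaged 3.88 ± 1.24 FPKM (SD, n = 4) in WT and 3.55 ± 1.37 (SD, n = 4) in Nynrin-KO (log2 fold change -0.12, limma adjusted p = 0.788) and Kdm5c from 2.68 ± 0.357 to 2.05 ± 0.799 FPKM (-0.31, adjusted p = 0.345). Without WT2 or KO3 the value of Kdm6a was positive (0.01 and 0.13).

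Transcript length went with the direction of change over the whole table. With the tested genes in 4 equal bins of length, the median log2 fold change was -0.49 up to 1120 bases, -0.08 and 0.04 in the middle bins, and 0.22 from 4122 bases up. In that last bin 22.0% of genes rose and 6.17% fell. It holds 8 of the 10 regulators, all but Ezh2 (2787 bases) and Men1 (3002 bases), and every one that rose. Dnmt1, Dnmt3b and Dot1l, with 5870, 4320 and 6808 bases, are in the same bin with negative values. The part of transcript length in the changes of the 10 genes was not tested.

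**Figure D5:**
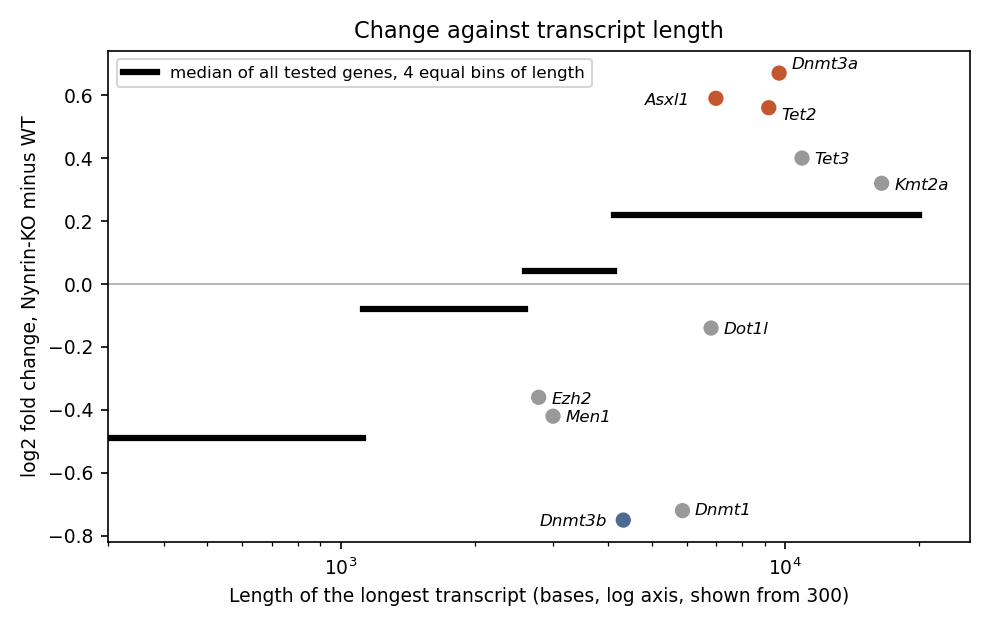
Log2 fold change of each of the 10 regulators against the length of its longest transcript in bases (log axis), with black lines for the median of all tested genes in 4 equal bins of length (-0.49, -0.08, 0.04 and 0.22). Dnmt3a, Asxl1, Tet2, Tet3 and Kmt2a lie above the median of their own bin, and Dnmt1, Dnmt3b, Dot1l, Ezh2 and Men1 lie below that of theirs.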

How the data were processed

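RNA-seq libraries of 4 WT and 4 Nynrin-KO samples were used, made with the Smart-Seq V4 kit, per the labels' protocols. The authors deposited 1 table of FPKM values for 48500 genes, whose header names no unit. The unit was read from the values: multiplied by the length of the longest GENCODE M21 transcript (99.62% of genes matched), the columns summed to 999541 to 999685, and 1 step per library turned 99.42% to 99.47% of the checked values into whole reads (tolerance 0.1 read). Bowtie 0.12.9, Cufflinks 2.1.1, HTSeq and the build mm10 are named, without their roles, per the submitters' processing notes. The sources used here state neither the counting rule nor strand. Libraries were matched to columns by their library names.

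The test was limma (version 3.58.1 in R 4.3.3) on log2(FPKM + 1) for genes that reached 1 FPKM in 4 or more libraries, with genotype as the only term, trend and robust estimation, two-sided, adjusted by Benjamini-Hochberg over 12524 genes. This scale understates changes of low genes. The 10 genes and the lists were chosen with earlier results of these data known. Named beside the 10 are, per list, up to 4 other genes with the smallest p among those past the threshold, the sex-linked demethylases and genes that check sort, sex and libraries; some of the genes this rule names are not reported here. Mki67, Tet1, Dnmt3l, Wdr5, Rbbp5, the single marker genes other than Kit and Cd34, other called genes of the last list and the ratios were chosen after values were seen. Alternatives covered pseudocount, filter, scaling, limma options, weights, block, voom, covariates, thresholds and left-out libraries, and these fits kept the same genes tested unless the filter itself was changed (voom lacked the few genes with no length). Gene coordinates, counted from 1, are GENCODE M21 (GRCm38, also called mm10), and promoter letters are RefSeq GRCm38.p6. Promoter windows of chromosome 18 and those not 300 bases long were left out before windows were counted. Tables and plots used Python 3.11.15 with pandas 2.3.3 and matplotlib 3.10.9. The level that 3 reads give for a transcript of 1 kb was 0.0907 FPKM in WT1 and 1.64 FPKM in KO3, and such floors cover counting error only.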

Additional observations from a re-analysis of the deposited data

Results flagged for a closer look

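In 3 of 64 sets of 4 libraries (the 10 regulators and the named genes of the lists, each in WT and in Nynrin-KO) a single library stood apart from the other 3 by more than Dixon's 95% limit, which chance alone does in about 1 group in 20. Kmt2a in KO1, at 1.33 FPKM, lay below the other Nynrin-KO libraries, which stood at 1.59 to 1.62 FPKM. Idh2 in WT1, at 266 FPKM, lay above the other WT libraries, which stood at 121 to 131 FPKM. Tdg in WT1, at 17.1 FPKM, lay above the other WT libraries, at 10.3 to 11.1 FPKM.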

How the results depend on the processing

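The direction of all 10 regulators was the same in all 24 alternative fits, and the calls were not. With all libraries 3 of the 10 were higher and 1 was lower in Nynrin-KO, and of the listed genes beside them 14 were higher and 15 lower. The members higher numbered 0 and the members lower 0 without a filter, without WT1 alone, without KO4 alone, without both WT1 and KO1, within the 5 libraries high in Gm10800, with the mature neutrophil level as a covariate, at an adjusted p under 0.01, and with a fold of at least 2 added. The listed genes were 2 higher and 7 lower without a filter, 4 and 6 without WT1 and KO1, 0 and 5 within the 5 libraries, 0 and 0 with the neutrophil covariate, 3 and 7 at 0.01, and 1 and 7 with the fold. At an unadjusted p under 0.05 the neutrophil covariate left 12 and 8 listed genes, and 1 and 0 of the 10. Members lower numbered 2 (Dnmt1 joined Dnmt3b) under upper-quartile scaling, quantile normalization, array weights, voom and the Gm10800 covariate. They also numbered 2 without WT3 alone and without both WT3 and KO3. With the replicate block 1 of the 10 was higher (Dnmt3a) and 1 lower (Dnmt1), and 8 listed genes were higher and 15 lower. The replicate numbers were not treated as a pairing, since deviations of same-numbered libraries correlated at -0.2128, -0.3889, 0.3293 and 0.007564, and not every library correlated best with its own number. When single libraries were left out, members higher ranged from 0 to 3, members lower from 0 to 2, listed genes higher from 6 to 16 and listed genes lower from 8 to 19. Of 27 called genes named beside the 10, all kept their sign in these fits and 12 kept their call whichever single library was left out, 10 without both WT1 and KO1, and 5 within the 5 libraries. The value of Kdm6a, not called, ranged from -0.31 to 0.13 when single libraries were left out. The scalings moved the median of all tested genes by -0.05 to 0.02 on the log2 scale. The smaller sets hold fewer libraries, the fit without a filter adjusts over more genes, and the summed neutrophil level does not overlap between the genotypes. Apart from that the cause was not tested. Depth limits WT3 and KO3, where the 10 genes rest on 7 to 137 reads.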

Other observations

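Ratios of Dnmt1, the abundant maintenance enzyme gene, to Dnmt3a and Tet2 did not overlap between the genotypes, and the ratio of Dnmt1 to Ezh2 did (0.777 to 1.14 in WT and 0.603 to 0.837 in Nynrin-KO). Dnmt1 exceeded Dnmt3a by 9.04 to 16.4 times in WT and by 2.59 to 3.75 times in Nynrin-KO. Tet2 stood at 0.195 to 0.317 of the level of Dnmt1 in WT and at 0.518 to 1.09 in Nynrin-KO, and KO3, the library with the lowest Dnmt1, was the single one with more Tet2 than Dnmt1. These ratios were chosen after the levels were seen and are given without a test. Their size within a library depends on the transcript lengths used for scaling.

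Other called genes of the AML regulator list were the acetyltransferase gene Crebbp (3.96 and 6.45 FPKM on average in WT and Nynrin-KO), the corepressor gene Ncor1 (7.51 and 11.6) and the demethylase gene Kdm4c (3.7 and 6.58), all higher, and the deacetylase gene Hdac2 (21.7 and 9.92) and the SWI/SNF subunit gene Smarcb1 (7.33 and 3.83), both lower. Ep300 and Crebbp, which encode related acetyltransferases, thus both passed in the higher direction.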
